A study of Mus musculus with 8 samples.

Results

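The 10 genes described here, grouped as inducible cytosolic heat shock genes, are Hsf1, Hspa1a, Hspa1b, Hspa8, Hsph1, Dnajb1, Dnaja1, Hsp90aa1, Hsp90ab1 and Chordc1. Hspa8 and Hsp90ab1 are constitutive forms, and Hsf1 encodes the factor that drives the other members. All 10 were taken by symbol from the 16538 genes of a DN3 thymocyte RNA-seq table. They were selected on the contrast between genotypes, with their lower level in Sel1l CKO already known. Their levels in control and Sel1l CKO are therefore given as a description, with no test. DN3 thymocytes are the CD4- CD8- CD44- CD25+ precursors in which β-selection begins. The study sorted them from C57BL/6 mice of 6 weeks. Both genotypes carried Sel1l-f/f alleles, and the Sel1l CKO mice alone also carried hCD2cre, a Cre driven by the human CD2 promoter that is active from the earliest thymic precursors onward. The controls carried no Cre, so an effect of Cre itself cannot be told apart from that of the deletion. There were 4 control and 4 Sel1l CKO libraries. Replicates 1 and 2 and replicates 3 and 4 of each genotype are described apart as well as together.

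Cells that accumulate unfolded protein in the cytosol answer with the heat shock response. The transcription factor HSF1 is held inactive by Hsp70 and Hsp90 chaperones, and when these are drawn away by unfolded clients it forms trimers, binds DNA at heat shock elements and raises the transcription of the chaperone genes. Hsp70 proteins bind exposed hydrophobic stretches, Hsp40 proteins deliver clients to them and start ATP hydrolysis, Hsp110 proteins exchange the nucleotide, and Hsp90 proteins finish the folding of kinases and receptors. SEL1L belongs to another branch of protein quality control, the removal of misfolded proteins from the endoplasmic reticulum (ER) for degradation in the cytosol.

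All 10 genes had a lower mean in Sel1l CKO than in control, but by very different amounts. Hspa1a and Hspa1b, the stress-inducible Hsp70 pair, stood at 1.02% and 1.38% of their control means. Hsph1 and Dnajb1 stood near the midpoint, at 49.4% and 51.1%. Hsp90aa1, Chordc1 and Dnaja1 ranged from 61.3% to 68.3%. Hspa8 and Hsp90ab1, the constitutive Hsp70 and Hsp90, kept 81.1% and 85.0%, and Hsf1 kept 98.3%. The differences of most genes rested more on control replicates 3 and 4 than on control replicates 1 and 2. Hspa1a and Hspa1b were very high in control replicates 3 and 4. Dnaja1 and Chordc1 differed almost alike within replicates 1 and 2 and within replicates 3 and 4.

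Heat shock elements were looked up in the promoters because HSF1 binds there. RefSeq promoter windows (build GRCm38.p6, from 250 bases before each transcription start to 50 after it) matched 6 of the 10 genes, with 10 windows in all. Hspa8, Hsp90aa1, Hsp90ab1 and Hsf1 had no match. The element was searched as GAANNTTC or TTCNNGAA, which read the same on both strands and can overlap by 1 GAA or TTC unit. At least 1 such element lay in 6 of the 10 windows, against 15.1% of all 32851 promoter windows, and in some window of 5 of the 6 genes, against 13.8% of the 5210 tested genes with a promoter. A run of 3 alternating units lay in 3 of the 10 windows, against 0.603% of all windows, and in 2 of the 6 genes, Hsph1 and Chordc1, against 0.768% of the 5210 genes. The 2 Hsph1 windows overlap and hold the same elements, so the counts of windows hold these elements more than once. The near-identical windows of Hspa1a and Hspa1b are also counted apart. A match of letters is a description of the window and not evidence of binding. The 250 bases before the starts of Hspa1a (chr17:34972157-34972406, minus strand) and Hspa1b (chr17:34959239-34959488, minus strand) are shown first, 5′ to 3′, because these genes differed most. Capitals mark the element, which starts 104 bases before the transcription start of each gene.
Hspa1a: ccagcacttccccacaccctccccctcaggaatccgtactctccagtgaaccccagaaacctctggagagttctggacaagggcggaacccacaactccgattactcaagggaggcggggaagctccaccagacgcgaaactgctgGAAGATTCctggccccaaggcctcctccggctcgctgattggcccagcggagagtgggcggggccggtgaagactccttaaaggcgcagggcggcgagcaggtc
Hspa1b: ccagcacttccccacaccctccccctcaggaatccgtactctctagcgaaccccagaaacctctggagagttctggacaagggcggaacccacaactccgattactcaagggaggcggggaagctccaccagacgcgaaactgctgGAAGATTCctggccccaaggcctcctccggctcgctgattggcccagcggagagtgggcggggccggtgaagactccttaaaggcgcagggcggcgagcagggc
The pair differed at 3 of these 250 bases, and none of the 3 fell in the element. The elements of the other members are shown for comparison, in capitals throughout. Positions are counted from 0 at the RefSeq transcription start (for Hsph1 the second of its starts).
Hsph1, from -54: TTCTCGAA
Hsph1, from 15: TTCTGGAAAGTTC
Dnaja1, from -124: GAAAATTC
Chordc1, from -4: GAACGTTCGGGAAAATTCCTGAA
Chordc1, from 33: TTCCGGAA
The Chordc1 run held 5 alternating units in 23 bases across its RefSeq start. Dnajb1 held none of these letters in its windows. No annotated GENCODE transcript began at the RefSeq starts of the Hsph1, Dnajb1 and Chordc1 windows, or at that of the Dnaja1 window with the element. The other Dnaja1 windows, at whose starts such transcripts did begin, held no element. Positions of these elements therefore depend on the RefSeq starts.

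Hsf1 (ENSMUSG00000022556.11, chr15:76477422-76501913 of GRCm38, plus strand) encodes the factor that drives the other members. Its RPKM (reads scaled to gene length and library size) was 4.29, 4.12, 4.57 and 4.53 in control replicates 1 to 4 and 3.78, 4.20, 4.44 and 4.79 in Sel1l CKO. The genotypes overlapped, and the difference was -0.03 ± 0.08 on the log2(RPKM + 0.1) scale (SE of the limma fit over all genes, n = 4 each). It changed sign, to 0.04, when limma weighted the libraries by quality, and to 0.03 without Sel1l CKO replicate 1. Hsf1 had the smallest change of the 10 genes.

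The inducible Hsp70 genes had the widest range. Hspa1a (ENSMUSG00000091971.3, chr17:34969190-34972156, minus strand, a single exon) reached 50.5 and 16.1 RPKM in control replicates 1 and 2, then 460 and 1059 RPKM in control replicates 3 and 4. Its Sel1l CKO libraries held 7.18, 3.75, 2.14 and 3.15 RPKM. No Sel1l CKO library came up to the lowest control library, while the control libraries themselves spanned 65.6-fold. Hspa1b (ENSMUSG00000090877.3, chr17:34956436-34959238, minus strand, a single exon) followed the same course, with 80.7, 26.9, 620 and 1380 RPKM in control and 12.5, 6.70, 3.48 and 6.45 RPKM in Sel1l CKO. Both genes were ordered alike over the control libraries, with replicate 4 highest and replicate 2 lowest. The differences were -5.23 ± 1.16 for Hspa1a and -4.96 ± 1.10 for Hspa1b (log2, SE, n = 4 each).

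The pair cannot be read as separate genes with full confidence. Of the stretches of 150 bases, the read length, along the Hspa1a transcript, 39.7% occurred in another transcript, nearly all of them in Hspa1b. For Hspa1b the share was 40.5%. How reads that fit both copies were counted is not given in the sources used here. The ratio of Hspa1a to Hspa1b RPKM ran from 0.600 to 0.767 in control and from 0.487 to 0.615 in Sel1l CKO, while the level of the pair moved by orders of magnitude. The shared sequence limits what this ratio can show.

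Hspa8 (ENSMUSG00000015656.17, chr9:40800984-40810087, plus strand) encodes HSC70, the Hsp70 that cells make without stress. Control replicates 1 to 4 held 1074, 984, 1255 and 1402 RPKM, and Sel1l CKO replicates 942, 1039, 917 and 923 RPKM. The genotypes overlapped, since control replicate 2 lay below Sel1l CKO replicate 2. The difference was -0.29 ± 0.11 (log2, SE, n = 4 each). Of the 150-base stretches of its transcript, 55.4% also occurred elsewhere, most often in the processed pseudogene Gm15459.

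Hsph1 (ENSMUSG00000029657.15, chr5:149614287-149636376, minus strand) encodes the inducible Hsp110, which exchanges the nucleotide of Hsp70. It stood at 30.8, 24.6, 45.4 and 33.9 RPKM in control and at 18.4, 16.0, 16.9 and 15.3 RPKM in Sel1l CKO. The genotypes did not overlap, and replicate 3 was the highest control. The difference was -0.98 ± 0.16 (log2, SE, n = 4 each). No 150-base stretch of its transcript occurred in another gene.

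Among the Hsp40 genes, the control libraries spanned 2.30-fold for Dnajb1 and 1.42-fold for Dnaja1. Dnajb1 (ENSMUSG00000005483.10, chr8:83608193-83612653, plus strand) encodes the inducible partner of HSPA1A, and its level was 49.3, 53.6, 98.3 and 113 RPKM in control against 48.0, 32.1, 38.4 and 42.3 RPKM in Sel1l CKO. Control replicates 1 and 2 sat just above the highest Sel1l CKO library, and control replicates 3 and 4 were higher by 2.06-fold on average. Dnaja1 (ENSMUSG00000028410.13, chr4:40722150-40737149, plus strand), a more widely expressed Hsp40, was at 30.5, 28.8, 40.8 and 30.8 RPKM in control and 21.6, 22.5, 23.4 and 21.9 RPKM in Sel1l CKO. Its genotypes did not overlap, and its Sel1l CKO libraries spanned only 1.08-fold. The log2 differences were -0.89 ± 0.27 for Dnajb1 and -0.53 ± 0.11 for Dnaja1 (SE, n = 4 each). A share of 11.6% of the 150-base stretches of Dnaja1 also occurred elsewhere.

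The Hsp90 genes parted by type. Hsp90aa1 (ENSMUSG00000021270.13, chr12:110690605-110702728, minus strand), the inducible form, held 151, 121, 175 and 162 RPKM in control and 98.6, 104, 86.8 and 83.8 RPKM in Sel1l CKO. Hsp90ab1 (ENSMUSG00000023944.14, chr17:45567775-45573271, minus strand), the constitutive form, held 1060, 1065, 1290 and 1170 RPKM in control and 1065, 1019, 884 and 927 RPKM in Sel1l CKO. The genotypes did not overlap for Hsp90aa1 and met at 1060 to 1065 RPKM for Hsp90ab1. The log2 differences were -0.70 ± 0.12 and -0.23 ± 0.09 (SE, n = 4 each), and that of Hsp90ab1 came to -0.05 when the libraries were quantile normalized. Of the 150-base stretches of Hsp90aa1, 36.2% also occurred elsewhere, mostly in the pseudogene Gm12346, and none of those of Hsp90ab1 did.

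Chordc1 (ENSMUSG00000001774.8, chr9:18292125-18317442, plus strand) encodes CHP1, an Hsp90 co-chaperone with CHORD zinc-binding domains. It stood at 8.38, 7.29, 10.9 and 7.57 RPKM in control and 5.13, 5.61, 5.90 and 5.42 RPKM in Sel1l CKO. Again the genotypes did not overlap. The difference was -0.60 ± 0.12 (log2, SE, n = 4 each).

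**Figure D1:**
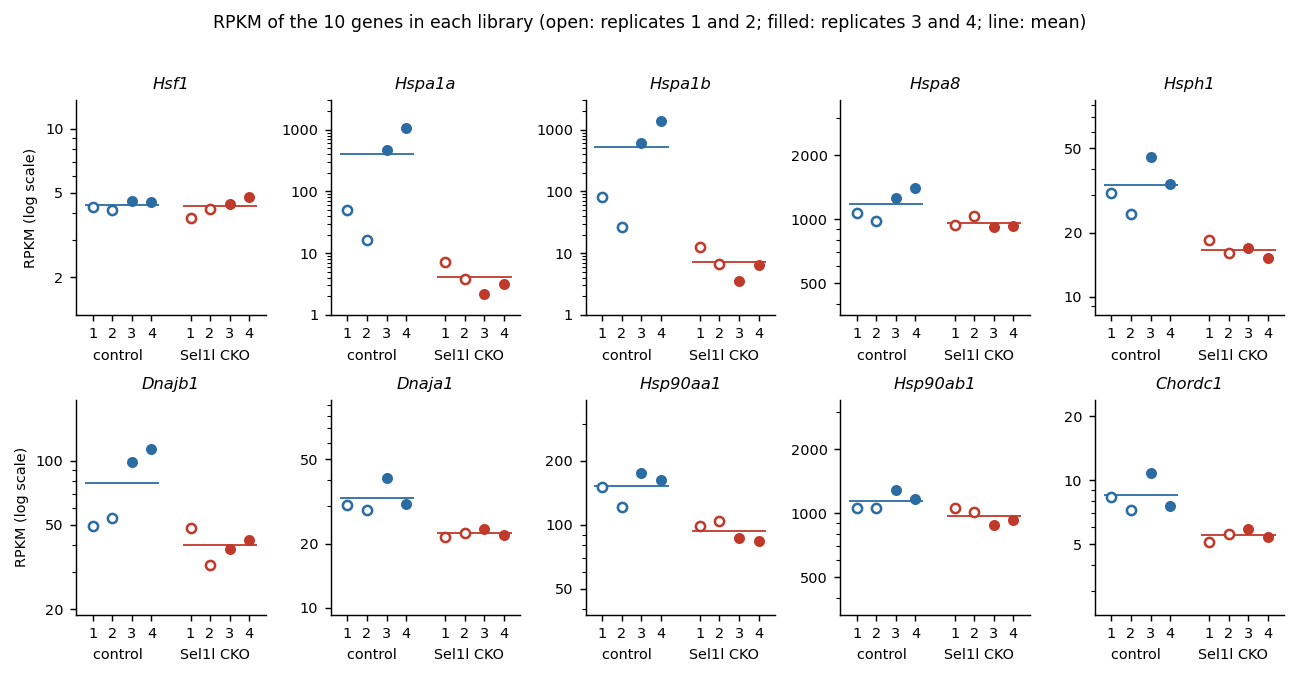
RPKM on a log axis for each of the 10 genes in control (blue) and Sel1l CKO (red) replicates 1 to 4, with open points for replicates 1 and 2, filled points for replicates 3 and 4 and a line at each mean. Hspa1a and Hspa1b share a wider axis and reach 1059 and 1380 RPKM in control replicate 4. The other panels each span about 10-fold around their own levels.

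The 10 genes had a median log2 difference of -0.65, beside 0.01 over the 6512 genes tested. In 7 of the 10 all 4 Sel1l CKO values were below all 4 control values, which was so for 5.59% of all genes tested. The limma fit placed 6 of the 10 (Hspa1a, Hspa1b, Hsph1, Dnaja1, Hsp90aa1 and Chordc1) past its adjusted threshold on the lower side, beside 1.01% of all genes tested. That count was 2 without Sel1l CKO replicate 1. Since the genes were chosen by this contrast, nothing is read from these counts.

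Splitting the libraries by replicate number changed the size of the differences. Within replicates 1 and 2 the median of the 10 genes was -0.42, and both Sel1l CKO libraries lay below both controls in 7 of them, beside 28.0% of all genes tested. Within replicates 3 and 4 the median was -0.83, and this held for 9 of the 10, all but Hsf1, beside 24.5% of all genes tested. Hspa1a differed by -2.44 within replicates 1 and 2 and by -8.02 within replicates 3 and 4, which left Sel1l CKO at 16.4% and 0.348% of control. The figures for Hspa1b were 17.9% and 0.497%.

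The other genes split less widely. Dnajb1 differed by -0.39 within replicates 1 and 2 and by -1.39 within replicates 3 and 4, Hsph1 by -0.68 and -1.28, and Hsp90aa1 by -0.41 and -0.98. Hspa8 and Hsp90ab1 were near 0 within replicates 1 and 2, at -0.06 and -0.03, and lower within replicates 3 and 4, at -0.53 and -0.44. Dnaja1 and Chordc1 differed almost alike in both sets, by -0.42 and -0.64 for Dnaja1 and by -0.54 and -0.67 for Chordc1. With 2 libraries a genotype in each set, these are values without a test, and the labels do not say what the sets share.

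**Figure D2:**
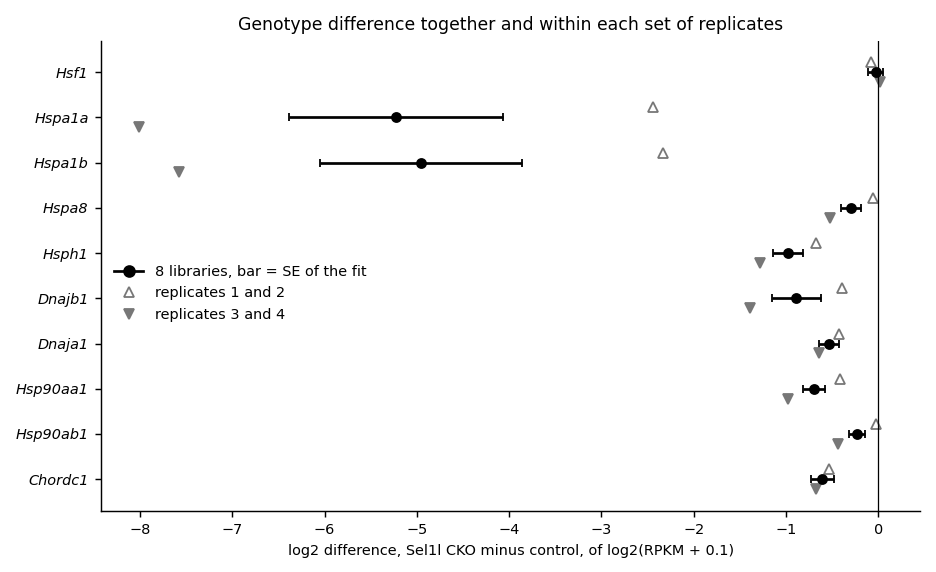
Log2 difference between Sel1l CKO and control of log2(RPKM + 0.1) for each gene, over all 8 libraries (black, bar = SE of the fit), within replicates 1 and 2 (open triangles) and within replicates 3 and 4 (filled triangles). Hspa1a runs from -2.44 to -8.02 between the sets, while Chordc1 stays between -0.54 and -0.67.

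The sets moved apart in control more than in Sel1l CKO. In control the mean of replicates 3 and 4 was above that of replicates 1 and 2 for all 10 genes, with a median log2 difference of 0.34. For Dnaja1 and Chordc1 this rested mainly on replicate 3. Their control replicate 4 was at 30.8 and 7.57 RPKM, against 30.5 and 8.38 RPKM in control replicate 1. Hspa1a was higher by 22.8-fold, Hspa1b by 18.6-fold, Dnajb1 by 2.06-fold and Hsph1 by 1.43-fold, and the other 6 by 1.08-fold to 1.29-fold. In Sel1l CKO 4 of the 10 were higher in replicates 3 and 4, with a median of -0.10. There Hspa1a and Hspa1b were lower, at 0.483 and 0.517 of the mean of replicates 1 and 2.

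Spread within a genotype was read from the same values and adds no separate evidence. Since the genes were chosen by the contrast between genotypes, nothing is read from the count below. The SD of the log2 values was larger in control than in Sel1l CKO for 9 of the 10 genes, Hsf1 being the exception, against 32.9% of all genes tested. The median SD of the 10 genes was 0.24 in control and 0.13 in Sel1l CKO, where over all genes it was 0.11 and 0.15. Hspa1a and Hspa1b ranked 2 and 3 of the 6512 genes by SD in control. In Sel1l CKO they ranked 73 and 65.

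Levels of different genes can be compared only per length, and for most genes the deposited RPKM divide by the whole gene span with its introns. The reads were therefore also set over the length of the principal transcript. For Hsf1, Hspa8, Dnajb1 and Chordc1 the annotated span gave no whole reads. Their reads rest on a length solved from the values, for Hspa8 4217 bases against a span of 9104. On that scale Hsp90ab1 and Hspa8 led in both genotypes, at 2500 ± 236 and 2076 ± 328 in control and 2124 ± 181 and 1683 ± 100 in Sel1l CKO (reads scaled to transcript length and library size, SD, n = 4). In control Hsp90aa1 came next at 562 ± 85.4, followed by Hspa1b at 527 ± 629 and Hspa1a at 397 ± 486, and these ranges overlapped. Hsph1, Dnajb1, Dnaja1, Hsf1 and Chordc1 then went from 196 ± 50.6 down to 32.0 ± 6.13. The control ranges of Hspa1b (26.9 to 1380) and Hspa1a (16.1 to 1059) also covered those of all these lower genes, so the control rank of the pair is not firm. Control ranges overlapped too for Hsp90ab1 and Hspa8 and for Dnajb1 and Dnaja1. In Sel1l CKO the order was the same at the top, but Hspa1b at 7.29 ± 3.78 and Hspa1a at 4.05 ± 2.19 were the lowest, below Chordc1 at 20.7 ± 1.22 and below Hsf1 at 48.6 ± 4.77. Of the neighbours in the Sel1l CKO order, the ranges of Dnaja1 and Dnajb1, of Dnajb1 and Hsf1 and of Hspa1b and Hspa1a overlapped.

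The 10 genes took 1.42%, 1.30%, 1.99% and 2.32% of the reads counted in control replicates 1 to 4 and 1.22%, 1.23%, 1.09% and 1.11% in Sel1l CKO. All Sel1l CKO libraries were below all controls in this share, which takes the reads of Hsf1, Hspa8, Dnajb1 and Chordc1 from their solved lengths. The libraries held from 32900253 to 50401359 counted reads, and the least covered member value, Hspa1a in Sel1l CKO replicate 3, still rested on 209 reads.

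Members of the same chaperone families that work in the ER went the other way. Hspa5 encodes BiP, the Hsp70 of the ER, and it rose from a range of 83.2 to 133 RPKM in control to one of 311 to 422 RPKM in Sel1l CKO, by 1.82 ± 0.15 (log2, SE, n = 4 each, limma adjusted p = 1.1e-04). Hyou1, its Hsp110 partner, rose by 2.05 (limma adjusted p = 5.6e-06), and Hsp90b1, the ER Hsp90, by 1.35 (limma adjusted p = 5.1e-05). The Hsp40 genes Dnajb11 and Dnajc3 rose by 1.10 and 1.20 (limma adjusted p = 1.8e-05 and 5.6e-06), while Dnajb9 was at 0.46 and did not pass (limma adjusted p = 0.575). Thus 5 of the 6 ER genes rose, beside 4.27% of all genes tested that were called higher. Hspa9 and Trap1, the Hsp70 and Hsp90 of mitochondria, were at 0.22 and -0.01 and did not pass (limma adjusted p = 0.275 and 0.927). Dnaja3, a mitochondrial Hsp40, was below the level for testing, at 0.716 to 0.942 RPKM in control and 0.852 to 1.03 RPKM in Sel1l CKO. The difference between compartments was not itself tested, because the cytosolic genes were chosen for theirs.

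**Figure D3:**
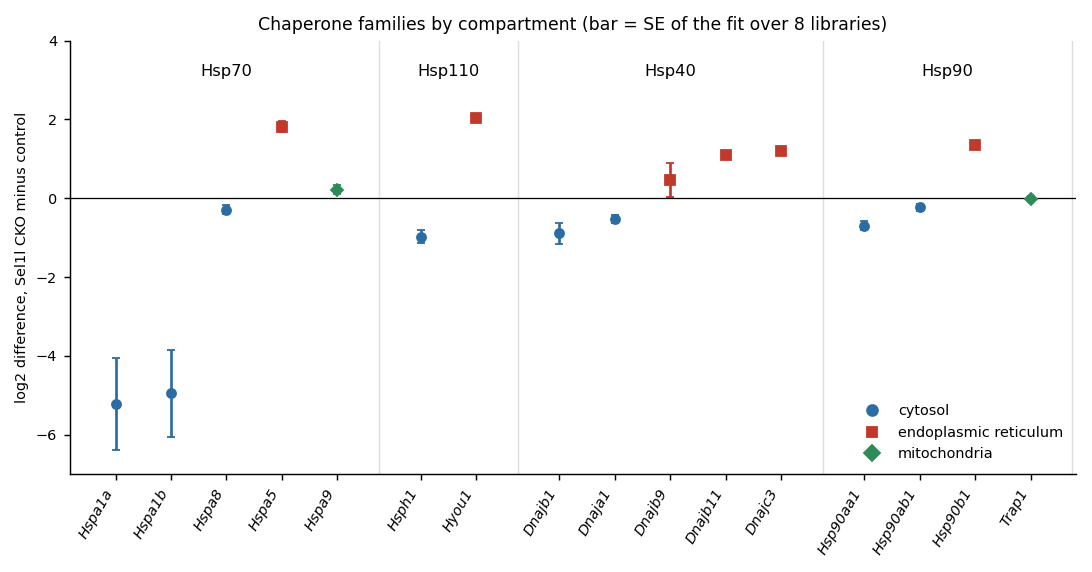
Log2 difference between Sel1l CKO and control for cytosolic (blue circles), ER (red squares) and mitochondrial (green diamonds) members of the Hsp70, Hsp110, Hsp40 and Hsp90 families, with bars for the SE of the fit over 8 libraries. The cytosolic genes lie below 0, the ER genes above it and the 2 mitochondrial genes between -0.01 and 0.22.

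The other genes of the heat shock network were read from the same fit. Of 76 further genes of the network, 52 were expressed highly enough to be tested, and their median log2 difference was -0.05 (20 higher, 32 lower). Limma called 2 of them higher and none lower, beside 4.27% and 1.01% of all genes tested. By unadjusted limma p under 0.05 there were 8 lower and 5 higher genes, for which the share over all genes was not counted. Nothing about the network as a whole is read from these counts. Vcp, the ATPase that draws proteins out of membranes for degradation, rose from 28.3 ± 1.31 to 38.1 ± 2.29 RPKM (SD, n = 4 each, log2 difference 0.43, limma adjusted p = 0.00517). Serpinh1 encodes HSP47, a collagen chaperone that lies in the ER although heat shock induces it, and it rose from 0.226 ± 0.164 to 9.81 ± 3.35 RPKM (log2 difference 4.97, limma adjusted p = 4.9e-05). Both passed under all 21 settings of the fit. Without Sel1l CKO replicate 3 there were 4 calls among 53 tested, since Bag5 joined the higher ones and Hspa4l, which then entered the tested genes, the lower. The further calls under other fits were mostly lower. Quantile normalization called 3 network genes lower (1.57% of all genes tested were), array weights 4 (2.79%), limma voom on recovered reads 4 of 67 (1.55%) and the sets of replicates as a term 3 (2.79%), with 2, 2, 2 and 3 higher. Ahsa1, an activator of the Hsp90 ATPase, and its relative Ahsa2 were each called lower under 3 of the 21 settings. Hspa4l, an Hsp110 gene, reached the level for testing under only 7 of the settings and was called lower in all 7.

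By role, the 17 tested Hsp90 co-chaperones had a median of -0.05, with 13 lower and 4 higher, and none passed. Of all 6512 genes tested, 3087 were lower. In 4 of the 17, namely Ahsa1, Ahsa2, Stip1 and Fkbp5, all Sel1l CKO values were below all control values, beside 5.59% of all genes tested. The 9 tested Hsp40 genes had a median of -0.06 and the 8 nucleotide exchange factors and partners of Hsp70 one of 0.05, again with none past the threshold. The 13 other genes that textbooks list as heat shock-induced had a median of -0.26, with 9 lower and 4 higher. Within replicates 3 and 4 alone, 8 of 54 network genes tested were called lower by limma, beside 1.13% of all genes tested there, among them the mitochondrial chaperonin genes Hspd1 and Hspe1, and Hspa4l. Within replicates 1 and 2 alone, Fkbp5 and Rgs2 were called lower, where 4.34% of all genes tested were. Whether the network differed from the 10 genes was not tested.

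**Figure D4:**
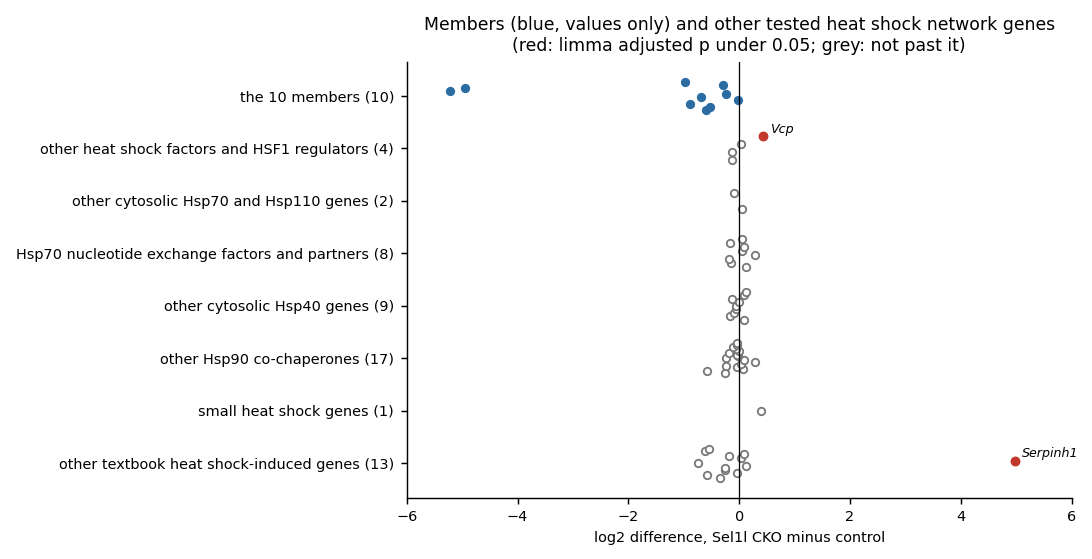
Log2 difference between Sel1l CKO and control of the 10 members (blue) and of the 52 other tested heat shock network genes by list, in red where limma's adjusted p was under 0.05 and in grey otherwise, with the number of genes in brackets. Apart from Vcp at 0.43 and Serpinh1 at 4.97, the other network genes lie between -0.74 and 0.39 and none is past the threshold.

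The other 24 network genes were below the level for testing. Their mean was lower in Sel1l CKO in 15 and higher in 9. In 5, namely Hsf2, Sirt1, Hspa1l, Hspa4l and Hspb1, all Sel1l CKO values were below all control values, and in none were they all above. Control replicates 3 and 4 were above every other library in 4, namely Sirt1, Hspa1l, Dnajb4 and Hspb1. The share over all genes below the level for testing was not counted, so nothing is read from these counts. The genes named in this paragraph were chosen after their values were seen. Hspa4l, nearest to the level for testing, was at 1.05 to 1.54 RPKM in control and 0.627 to 0.720 RPKM in Sel1l CKO. Hspb1, the small heat shock protein HSP27, had 0.0449, 0.127, 0.570 and 2.997 RPKM over control replicates 1 to 4. In Sel1l CKO it was at 0.0161 RPKM in replicate 1 and listed at 0 in the others. Hspa1l, a neighbour of the Hspa1 pair that is mainly expressed in testis, was at 0.0149, 0.0191, 0.0432 and 0.193 RPKM in control and at no more than 0.00603 RPKM in Sel1l CKO. Dnajb4 was at 0.433, 0.259, 1.90 and 1.34 RPKM in control and between 0.261 and 0.475 RPKM in Sel1l CKO. Bag3, a co-chaperone gene that HSF1 induces, was between 0.321 and 0.650 RPKM in control and between 0.275 and 0.793 RPKM in Sel1l CKO, and Hmox1, another stress-induced gene, had means of 0.103 and 0.170 RPKM in control and Sel1l CKO.

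The genes outside the 10 whose course over the 8 libraries was most like that of Hspa1a were Nrarp, Smim6, Btg2, Hnrnpa1, Jun, Id1, Hspe1, Tra2a, Ier2 and Zc3h10, with Pearson's r from 0.888 to 0.923 on the log2(RPKM + 0.1) values. These correlations describe 8 libraries that differ in genotype and in set. For the deviations from the genotype means, r ran from 0.677 to 0.907, highest for Hspe1, the co-chaperonin HSP10 of mitochondria. Hspe1 was at 73.5, 71.4, 98.1 and 97.3 RPKM in control and at 77.6, 72.2, 69.5 and 62.6 RPKM in Sel1l CKO. Among the members, r over the 8 libraries was 0.9995 for Hspa1b, 0.952 for Dnajb1, 0.948 for Hspa8 and 0.939 for Hsp90aa1, and lower for Chordc1, at 0.804, and Hsf1, at 0.248. For the deviations from the genotype means it was 0.998 for Hspa1b, 0.898 for Dnajb1, 0.922 for Hspa8, 0.793 for Hsp90aa1, 0.286 for Chordc1 and 0.233 for Hsf1. For Hsph1, Hsp90ab1 and Dnaja1 r was 0.931, 0.875 and 0.854 over the 8 libraries and 0.758, 0.712 and 0.461 for the deviations. The sequence that Hspa1b shares with Hspa1a limits the value for that pair.

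Immediate early genes, which respond within minutes to stimulation or to tissue handling, moved with the sets of replicates in both genotypes. The summed RPKM of the list of 20 came to 544, 486, 1955 and 1860 over the control replicates and 372, 267, 698 and 798 in Sel1l CKO. Of the 16 tested, 15 had a lower mean log2 value in Sel1l CKO, and their differences ran from -1.54 to 0.12. With genotype as the only term, Btg2 alone was called, at -1.04 (limma adjusted p = 0.0466). Jun was at 168, 134, 457 and 454 RPKM in control and at 86.4, 54.8, 110 and 133 RPKM in Sel1l CKO (log2 difference -1.52, limma adjusted p = 0.0919). Fos was at -1.06 and Egr1 at -1.54 (limma adjusted p = 0.434 and 0.299). Within each set, both Sel1l CKO libraries lay below both controls for Fos, Jun and Egr1. This was so for 28.0% of all genes tested within replicates 1 and 2 and for 24.5% within replicates 3 and 4. Of the 16 tested, Fosb, Ier5, Zfp36, Klf2 and Klf6 did not show it within replicates 1 and 2, nor did Ier5 within replicates 3 and 4. With the sets as a term in the fit, 10 of the 16 were called lower and none higher, beside 2.79% of all genes tested called lower, with limma adjusted p = 0.0105 for Fos, 0.0015 for Jun and 0.0117 for Egr1. Replicates 3 and 4 were above replicates 1 and 2 in this sum in both genotypes, whereas the Hspa1 pair was above only in control. The part of these genes in the members' differences was not tested.

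**Figure D5:**
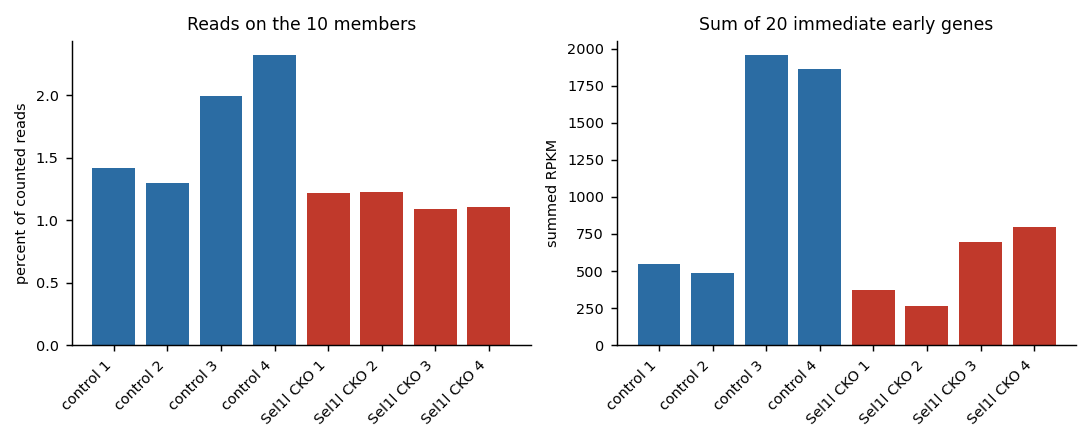
Left, percent of counted reads on the 10 members in each library, and right, summed RPKM of 20 immediate early genes, for control (blue) and Sel1l CKO (red). The members' share is highest in control replicates 3 and 4, at 1.99% and 2.32%, where the immediate early sum is also highest, at 1955 and 1860.

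The identity of the libraries was checked with markers. Sel1l was at 1.57 to 1.83 RPKM in control and 0.876 to 1.32 RPKM in Sel1l CKO, without overlap (log2 difference -0.59, limma adjusted p = 0.0327). Its difference was -0.89 within replicates 1 and 2, where Sel1l CKO held 51.3% of control, and -0.30 within replicates 3 and 4, where it held 80.1%. All 16 DN3 markers were tested and none was called, but 13 were lower in Sel1l CKO and 3 higher, with a median log2 difference of -0.22. In 4 of the 16 all Sel1l CKO values were below all control values, beside 5.59% of all genes tested. The sum of the DN3 markers did not overlap between genotypes, with 835 to 976 RPKM in control and 770 to 797 RPKM in Sel1l CKO. The 7 ETP and DN2 markers, none high enough to be tested, summed to 0.540 to 0.594 RPKM in control and 0.295 to 0.526 RPKM in Sel1l CKO, again without overlap. The 6 B cell markers summed to 8.22 to 10.2 RPKM in control and 5.31 to 8.22 RPKM in Sel1l CKO. Over the 8 libraries 10 of 11 myeloid and dendritic markers summed to 3.56 to 9.36 RPKM and 5 of 6 erythroid markers to 0 to 2.66 RPKM, with Alas2 at 0 in all. The 8 DP and SP markers summed to 5.04 to 20.7 RPKM in control and 4.79 to 12.2 RPKM in Sel1l CKO. The sum of 8 of 9 stromal and epithelial markers did not overlap, with 4.32 to 6.18 RPKM in control and 2.87 to 3.60 RPKM in Sel1l CKO, and 1 of the 2 tested was called lower. That of 5 of 7 NK and γδ markers was 32.6 to 39.8 and 24.0 to 35.6 RPKM. Their part in the members' differences was not tested. In bulk RNA, fewer cells with a transcript and less of it per cell cannot be told apart.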

How the data were processed

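Total RNA of sorted DN3 thymocytes was sequenced as stranded mRNA libraries (150-base paired reads). According to the study's methods and the submitters' processing notes, the authors aligned reads to GRCm38 with STAR (2.5.2b), counted them per protein-coding gene with HTSeq (2.7) and deposited 1 table of RPKM. The deposited RPKM fit whole reads (within 0.05 of a read) over the annotated gene span for 76.7% of 15643 genes and over exon length for 3.29%, so introns were part of the length. The handling of reads that fit several genes is not given in the sources used here.

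The members, gene lists and alternatives were chosen with earlier results of these data known. The 6512 genes whose mean RPKM reached 1 or more were fitted with limma 3.58.1 (R 4.3.3, mean-variance trend, two-sided) on log2(RPKM + 0.1) with genotype as the only term, over 4 control and 4 Sel1l CKO libraries, and p-values were adjusted by Benjamini-Hochberg over all 6512 genes at 0.05. The study fitted read counts, and limma took that place here. The labels name no animal for a library, so p-values measure the spread between these libraries. Reads were recovered for 15613 genes, 94.9% to 98.2% of the counted reads, and used with limma voom as an alternative. For 3609 of these genes the length was solved from the values. Gene positions were those of GENCODE M21 on GRCm38, promoters those of RefSeq. The fit was tested on simulated data.

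Named were all members, network genes past the threshold, ER and mitochondrial paralogues, Sel1l, Fos, Jun, Egr1 and the 10 genes most like Hspa1a. Low or otherwise called network genes were named after their values were seen. The alternatives were other pseudocounts (1 and 0.01), no filter and a mean RPKM of at least 5, median-of-ratios and quantile scaling, array weights, a replicate block, the sets of replicates as a term, voom, each library left out in turn and, added after the data were seen, each set of replicates alone.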

Additional observations from a re-analysis of the deposited data

Results flagged for a closer look

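Of 106 groups of 4 libraries compared, 3 held a library that stood apart from the others by Dixon's test, where chance gives about 5.3. Dnaja1 was at 40.8 RPKM in control replicate 3 against 28.8 to 30.8 RPKM in the other controls. Trap1 was at 7.16 RPKM in control replicate 4 against 6.45 to 6.55 RPKM. Tra2a was at 6.99 RPKM in Sel1l CKO replicate 2 against 7.64 to 7.71 RPKM.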

How the results depend on the processing

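The count of genes past the adjusted p, 344 (278 higher, 66 lower), became 218 with a mean RPKM of at least 5, 640 with array weights, 525 with the sets of replicates as a term and 581 within replicates 1 and 2 alone. The count among the other heat shock network genes, 2, became 4 without a filter, 5 with quantile normalization, 6 with array weights, with the sets as a term and with voom, 4 within replicates 1 and 2, and 10 in the set of replicates 3 and 4. Of these, 2, 3, 4, 3, 4, 2 and 8 were lower, in that order, against none as reported. The members' median of -0.65 became -0.42 within replicates 1 and 2. Leaving out 1 library gave 244 to 314 genes, 2 to 4 network genes and a member median of -0.74 to -0.55. Of 119 single member values under the alternatives that kept both genotypes whole or used 1 set, 104 stayed within 1 SD of the replicates and 15 did not, 14 of them in a single set of replicates. The causes were not tested.

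The fit with a replicate block gave 317 genes, 3 network genes, the third being Rgs2, and the same member median of -0.65. The deviations of same-numbered libraries had correlations of 0.16, 0.10, 0.44 and 0.01, so the numbers were not taken as pairs. Depth was not the limit for the members, each value of which rested on at least 209 reads. Shared sequence limits Hspa1a, Hspa1b, Hspa8 and Hsp90aa1. Levels set over the principal transcript assume that 1 transcript carries the reads. With elements of 3 units, 2 of 6 members with a promoter held a match, and with elements of 2 units 5 did.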
